A study of Homo sapiens with 27 samples.

Results

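Immediate early genes and the feedback genes of the mitogen-activated protein kinase (MAPK) pathway were followed as 1 set of 39 named genes in human endothelial cells exposed to mesenchymal stromal cells (MSCs) or their products. The genes were chosen by name and matched to the deposited gene identifiers; all 39 were found among 60604 entries. Of these, 27 are early genes (7 AP-1 subunits, 3 EGR factors, 3 NR4A receptors and 14 others) and 12 are feedback and output genes (5 DUSP phosphatases, 5 SPRY and SPRED proteins and 2 ETV factors). RNA was sequenced from EA.hy926 cells, a hybrid of an umbilical vein endothelial cell and A549, a lung carcinoma line. They were studied in 7 groups. MSC/MMC+ was direct co-culture, in equal numbers, with MSCs of the adipose line ASC52telo, immortalised with telomerase, that had been made senescent. Senescence was brought about by 18 h of mitomycin C (1.5 µg/mL), which crosslinks DNA, and 10 further days in culture. MSC/MMC- was the same co-culture with untreated, young MSCs. In ECM/MMC+ and ECM/MMC- the endothelial cells grew on matrix left after senescent or young MSCs were stripped away with detergent, and in CM/MMC+ and CM/MMC- they received medium conditioned by senescent or young MSCs, mixed in equal parts with culture medium. Every exposure lasted 48 h, and control endothelial cells had none. Each group had 4 libraries, except 3 in MSC/MMC+, all from 1 sequencing run, and all carry the same wild-type genotype label. The groups stand for 1 endothelial line and 1 MSC line. The labels do not say whether libraries of a group came from separate cultures. The p-values thus weigh differences between groups only against the spread among libraries of a group, which can be technical.

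Immediate early genes are transcribed within minutes of a stimulus without new protein synthesis. Kinases of the ERK, JNK and p38 branches reach them through factors such as SRF, ELK1 and CREB, and many of them encode transcription factors, among them FOS, JUN and EGR1. The same pathways induce their own brakes: DUSP proteins remove phosphate from MAP kinases, SPRY and SPRED proteins hold back signalling between growth factor receptors and RAF, and ETV4 and ETV5 are transcription factors whose levels usually follow sustained ERK activity. In endothelium these genes are known as responders to growth factors, flow, cytokines and cell detachment.

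Values below are counts scaled to a common library total (CPM, counts per 1000000 counts), scaled between libraries by the trimmed mean of M-values (TMM). They are given for replicates 2, 3 and 4, in that order, and means carry the SD (n = 3). Total counts per library ran from 66320519 to 111512357. The 13 stromal marker genes together held 350.4 to 445 CPM in MSC/MMC+ co-culture, 167 to 231 CPM in MSC/MMC- co-culture, 32.1 to 50.9 CPM on ECM, 62.5 to 78.8 CPM in CM and 43.2 to 54.5 CPM in control cells; at most 1 of the 13 was at 0 in any library. Replicate 1 stood apart: outside co-culture its 5 libraries held 4861 to 9584 CPM of stromal markers, and the telomerase gene TERT, carried by the MSC line, stood at 633 to 1274 CPM there, against 1.18 to 2.25 CPM in the other libraries of those groups and 3.00 to 7.97 CPM in co-culture replicates 2 to 4. Replicate 1 of MSC/MMC- had 104 CPM of stromal markers and 27.9% of its counts on ribosomal protein genes. Replicate 1 is therefore shown apart, and MSC/MMC+ had none. The 12 endothelial markers summed to 3507 to 3904 CPM in co-culture and 1618 to 2050 CPM in control cells; PECAM1 averaged 499.8 ± 117 CPM in control cells, while EMCN and CLDN5 were at or near 0 in every library. The RNA extraction notes name MSCs as the source, while the cell type label says endothelial. In bulk RNA, fewer cells of a type and less RNA per cell cannot be told apart. No label says that the co-cultured cell types were parted before RNA extraction. Co-cultures were set up in equal numbers, and in replicates 2 to 4 their stromal markers were far below those of replicate 1 outside co-culture. Handling that only co-culture libraries had cannot be told apart from co-culture itself. Its part in the member values was not tested.

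Most of the set was measurable, over a wide range. By CPM, the 3 highest members were FOSL1 (321.5 CPM over the 21 libraries), an AP-1 subunit that persists longer than FOS, MCL1 (248 CPM), an anti-apoptotic BCL2 relative, and DUSP4 (228 CPM), a nuclear MAP kinase phosphatase. Per kilobase of exon, with lengths from GENCODE 29, FOSL1 again led with 170.4 CPM per kb, followed by IER2, a nuclear early response protein, with 66.7 CPM per kb and JUN, the founding AP-1 partner, with 57.1 CPM per kb. EGR1, the zinc finger factor often used as a readout of ERK activity, had 2.00 CPM per kb, and FOS had 5.17 CPM per kb. EGR2, EGR3 and DUSP2 failed the filter on low counts and were not tested: EGR2 reached at most 0.0819 CPM in replicates 2 to 4, EGR3 0.0632 CPM, and DUSP2, a phosphatase known from immune cells, had 1 read in control replicate 2 and 0 in the 20 other libraries. A count of 0 allows up to 3 counts, which is 0.0269 to 0.0452 CPM at these depths. The other 36 members were tested with edgeR's quasi-likelihood F-test within the whole table, and "called" means a Benjamini-Hochberg adjusted p under 0.05 over all genes tested. Across 12 comparisons 29 of the 36 were called at least once.

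Sequence just before the start site is shown for FOS, FOSB, JUNB, EGR1, DUSP1 and DUSP6, whose higher levels in co-culture, described below, carry the main result. The windows are the 250 bases before the RefSeq start on GRCh38.p14, read 5′ to 3′ on the strand of the gene. Capitals mark CArG boxes (CC, a run of A or T, then GG; the element that SRF binds) and TGACG or TGACGTCA (elements of CREB and ATF factors; TGACG lies inside TGACGTCA), each searched on both strands, so that CGTCA is TGACG on the other strand. In these lines the window of FOS is chr14:75278578-75278827 (plus strand), of FOSB chr19:45467746-45467995 (plus), of JUNB chr19:12791236-12791485 (plus), of EGR1 chr5:138465229-138465478 (plus), of DUSP1 chr5:172771196-172771445 (minus) and of DUSP6 chr12:89352502-89352751 (minus).
FOS: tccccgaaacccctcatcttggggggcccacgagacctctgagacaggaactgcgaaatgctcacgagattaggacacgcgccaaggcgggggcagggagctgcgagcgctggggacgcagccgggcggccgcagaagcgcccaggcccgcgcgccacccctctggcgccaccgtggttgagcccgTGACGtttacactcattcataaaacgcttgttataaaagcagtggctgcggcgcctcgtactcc
FOSB: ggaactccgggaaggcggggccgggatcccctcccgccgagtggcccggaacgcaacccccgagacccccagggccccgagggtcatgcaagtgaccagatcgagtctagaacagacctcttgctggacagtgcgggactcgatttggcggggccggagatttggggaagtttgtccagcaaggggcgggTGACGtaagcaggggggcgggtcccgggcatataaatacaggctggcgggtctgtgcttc
JUNB: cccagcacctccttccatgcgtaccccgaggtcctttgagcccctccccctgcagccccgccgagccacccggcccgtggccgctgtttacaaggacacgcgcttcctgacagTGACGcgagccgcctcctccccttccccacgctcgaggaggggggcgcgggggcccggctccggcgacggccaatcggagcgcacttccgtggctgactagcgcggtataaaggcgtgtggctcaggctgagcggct
EGR1: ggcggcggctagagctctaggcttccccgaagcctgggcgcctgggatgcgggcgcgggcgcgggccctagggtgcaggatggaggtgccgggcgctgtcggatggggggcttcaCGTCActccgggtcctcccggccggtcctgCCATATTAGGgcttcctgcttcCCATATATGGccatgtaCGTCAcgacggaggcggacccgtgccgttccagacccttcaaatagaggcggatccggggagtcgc
DUSP1: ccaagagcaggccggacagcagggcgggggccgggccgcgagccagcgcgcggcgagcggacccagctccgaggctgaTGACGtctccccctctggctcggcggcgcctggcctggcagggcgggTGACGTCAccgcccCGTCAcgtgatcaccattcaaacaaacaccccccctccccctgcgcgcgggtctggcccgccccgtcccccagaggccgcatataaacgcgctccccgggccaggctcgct
DUSP6: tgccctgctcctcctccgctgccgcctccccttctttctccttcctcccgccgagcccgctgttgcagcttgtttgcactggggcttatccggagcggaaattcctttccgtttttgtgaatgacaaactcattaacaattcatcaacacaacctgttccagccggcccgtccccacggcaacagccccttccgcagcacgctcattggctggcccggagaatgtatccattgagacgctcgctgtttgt
EGR1 had CArG boxes beginning 105 and 83 bases before its start, and TGACG at 135 and 66. FOS, FOSB and JUNB had 1 TGACG each, 64, 60 and 137 bases before the start, and no CArG box in this window. DUSP1, the phosphatase that is itself an early gene, had the full TGACGTCA 125 bases before its start, and DUSP6 had none of the motifs searched. RefSeq windows were found for 27 of the 39 members, 38 windows in all. CArG boxes lay in 7.89% of them (EGR1, EGR2 and SRF) and in 1.17% of all 34788 promoter windows. TGACGTCA lay in 5.26% of member windows (DUSP1 and JUND) against 1.64% of all, TGACG in 39.5% against 21.2%, and TGANTCA, the AP-1 element, in 0 against 6.59%. These are matches of letters in a short window, not binding sites.

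**Figure D1:**
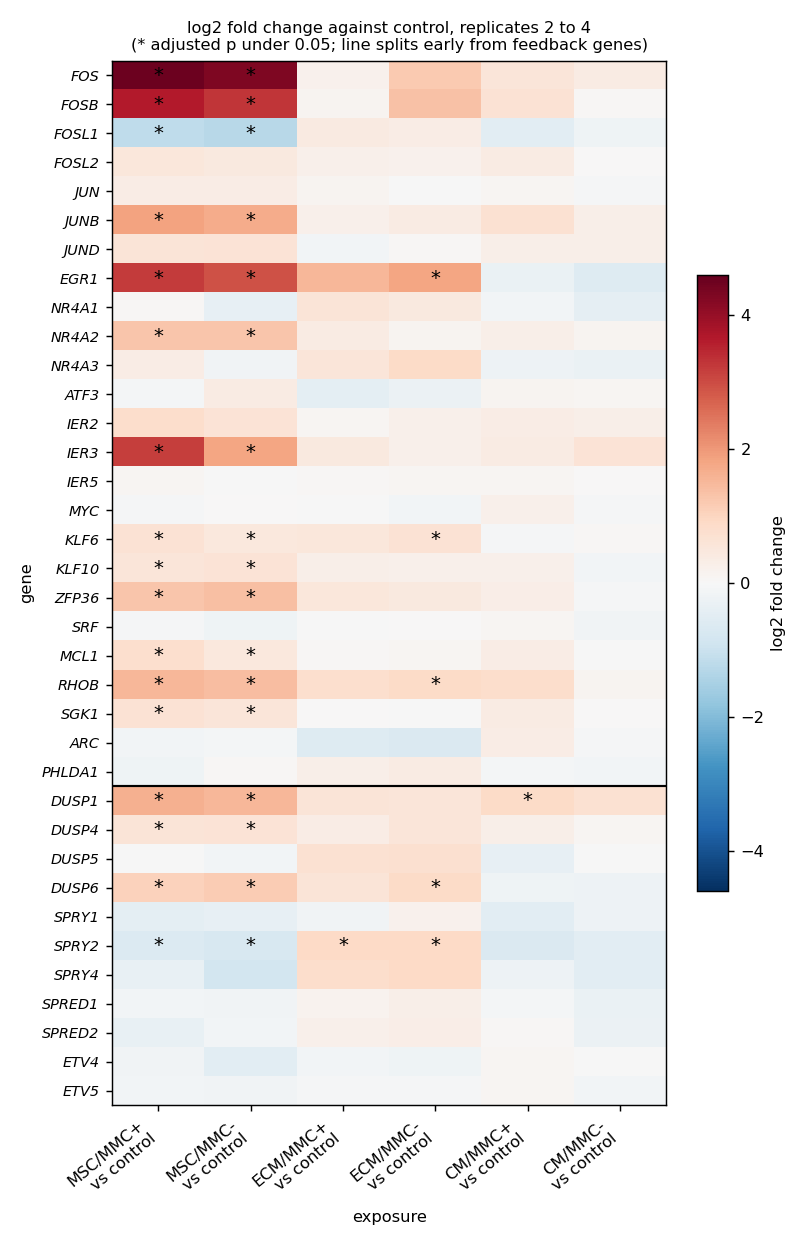
Log2 fold change of each of the 36 tested members (rows) against control, for the 6 exposures (columns), in replicates 2 to 4; red is higher and blue lower than control, a star marks an adjusted p under 0.05, and the line splits early from feedback genes. The co-culture columns hold 17 stars each, those of ECM/MMC+ and ECM/MMC- 1 and 5, and those of CM/MMC+ and CM/MMC- 1 and 0.

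Within replicates 2 to 4 the early genes stood furthest above control in direct co-culture. In MSC/MMC+ co-culture 17 of 36 tested members were called against control, 15 higher and 2 lower. Of all genes tested, 8.05% were called, 5.82% higher and 2.23% lower. In MSC/MMC- co-culture 17 were called, again 15 higher and 2 lower, while 9.68% of all genes were called, 6.71% higher and 2.97% lower. Both comparisons use the same control libraries, so their agreement is not independent, and the values are given side by side. Among the early genes 12 were called higher and 1 lower of 25 in each, and among the feedback genes 3 higher and 1 lower of 11. All libraries of MSC/MMC+ lay above all control libraries for 17 of 36 tested members, and those of MSC/MMC- for 16. Of all genes tested 15.1% and 15.5% did so, and 10.4% and 10.8% lay wholly below control. With 3 libraries on a side such separation is common, so below it is a description only. Markers of other kinds moved with the members: 12 of 13 stromal markers were called higher in MSC/MMC+ and 11 in MSC/MMC-, and of 10 tested endothelial markers 8 were higher in MSC/MMC+ and 9 in MSC/MMC-. Of 5 tested epithelial markers 2 were called higher in each co-culture. The part of cell composition in the member values was not tested.

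FOS had the largest log2 fold change of the 36 tested members in both co-cultures. It stood at 44.05, 95.2 and 22.9 CPM in MSC/MMC+ co-culture and at 50.3, 65.0 and 22.8 CPM in MSC/MMC- co-culture, against 2.48, 2.21 and 2.39 CPM in control cells. Every co-culture library lay far above every control library, though replicate 4 was the lowest of both co-cultures. The log2 fold change was 4.53 ± 0.52 (adjusted p = 0.000226) in MSC/MMC+ and 4.29 ± 0.51 (adjusted p = 0.000399) in MSC/MMC-, with the standard error after the sign. FOSB, its close relative, had 8.98, 26.5 and 7.41 CPM in MSC/MMC+ and 13.8, 12.9 and 6.14 CPM in MSC/MMC-, against 1.66, 0.731 and 1.00 CPM in control cells. For FOSB the log2 fold changes were 3.67 ± 0.53 (adjusted p = 0.00117) and 3.27 ± 0.52 (adjusted p = 0.00245). As with FOS, replicate 3 of MSC/MMC+ was the highest library. JUNB, an AP-1 partner of FOS, stood at 77.3, 89.2 and 58.2 CPM and 67.3, 73.98 and 62.5 CPM in MSC/MMC+ and MSC/MMC-, against 27.2, 15.4 and 20.1 CPM in control cells, and rose by log2 fold changes of 1.85 ± 0.22 (adjusted p = 0.000294) and 1.705 ± 0.22 (adjusted p = 0.000613). FOSL1 went the other way within the same family. It had 160.0, 152 and 183 CPM in MSC/MMC+ and 149.6, 135 and 171 CPM in MSC/MMC-, below each control library at 453, 267 and 393 CPM, with log2 fold changes of -1.16 ± 0.19 (adjusted p = 0.00313) and -1.28 ± 0.19 (adjusted p = 0.00175). The co-culture libraries were thus lower in FOSL1 and higher in FOS, FOSB and JUNB than every control library. The other AP-1 genes were not called: FOSL2 differed from control by 0.54 and 0.46 on the log2 scale in MSC/MMC+ and MSC/MMC-, JUN by 0.36 and 0.34, and JUND by 0.602 and 0.64.

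**Figure D2:**
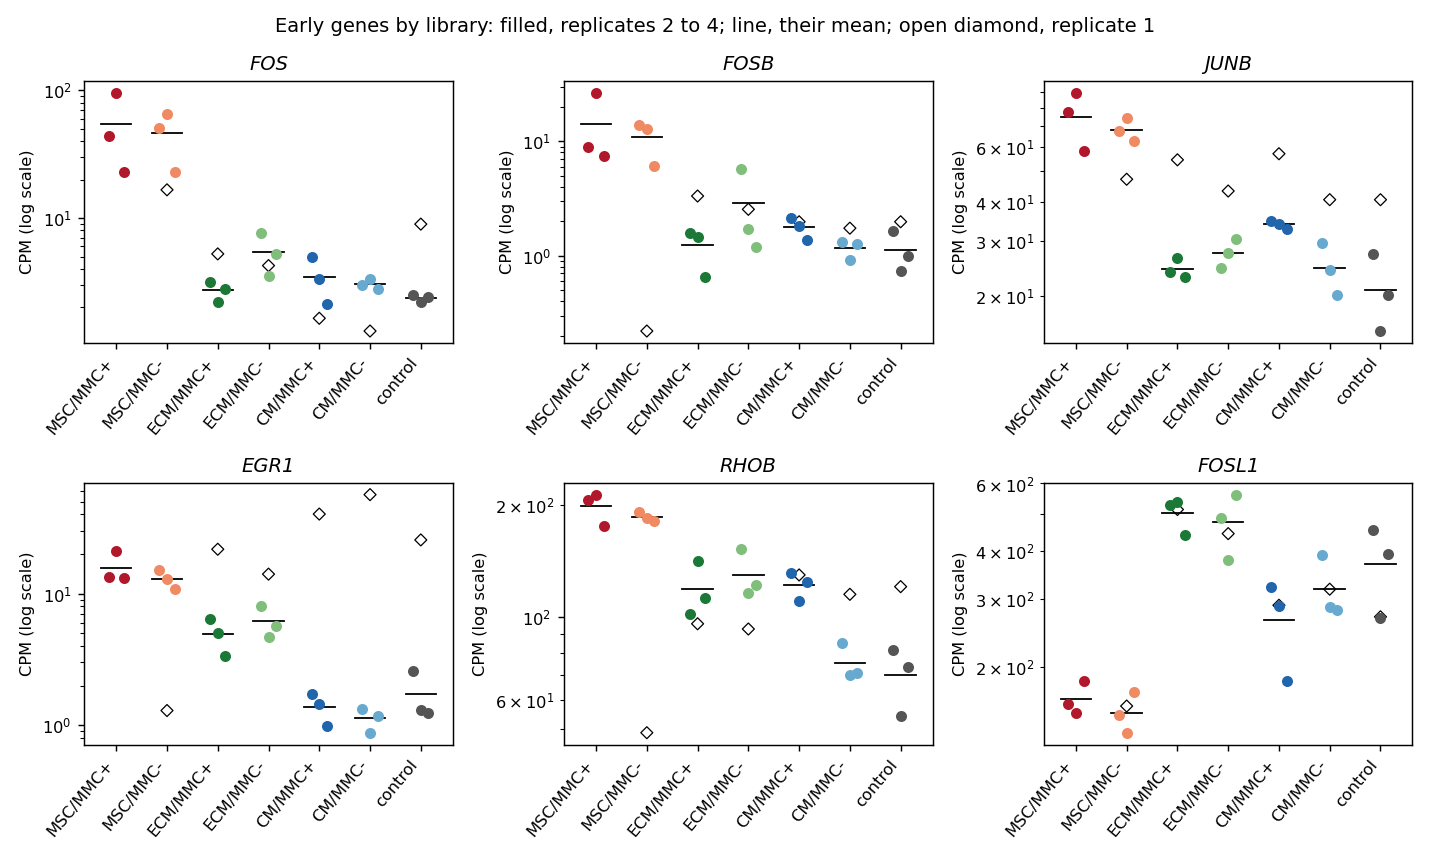
CPM on a log scale of FOS, FOSB, JUNB, EGR1, RHOB and FOSL1 in the 7 groups; filled points are replicates 2 to 4, the line is their mean and the open diamond is replicate 1. FOS is at 22.8 CPM or more in the 6 co-culture libraries of replicates 2 to 4 and at 7.61 CPM or less in the 15 others, and FOSL1 is lowest in co-culture.

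EGR1 had 13.3, 20.9 and 13.1 CPM in MSC/MMC+ co-culture and 15.03, 12.8 and 10.9 CPM in MSC/MMC- co-culture, against 2.599, 1.31 and 1.23 CPM in control cells. Its log2 fold changes were 3.203 ± 0.31 (adjusted p = 6.84e-05) and 2.91 ± 0.30 (adjusted p = 0.000156) and no co-culture library overlapped control. NR4A2, an orphan nuclear receptor of the early class, had 1.19, 1.89 and 1.03 CPM in MSC/MMC+ and 1.38, 1.44 and 1.27 CPM in MSC/MMC-, against 0.893, 0.3398 and 0.458 CPM in control cells. Its calls were narrow: 1.28 ± 0.34 (adjusted p = 0.0421) in MSC/MMC+ and 1.27 ± 0.34 (adjusted p = 0.0384) in MSC/MMC-, and each was lost when any library but control replicate 2 was left out, with an adjusted p of up to 0.218 in MSC/MMC+ and 0.148 in MSC/MMC-. NR4A1 and NR4A3, its relatives, were not called in co-culture against control.

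Among the other early genes, RHOB, a growth factor inducible small GTPase of endosomes, rose in both co-cultures. It stood at 206, 214 and 176 CPM in MSC/MMC+ and 192, 185 and 182 CPM in MSC/MMC-, against 81.6, 54.2 and 73.3 CPM in control cells (1.52 ± 0.16, adjusted p = 0.000156 and 1.42 ± 0.16, adjusted p = 0.000299 on the log2 scale). ZFP36, the protein tristetraprolin that speeds decay of early gene and cytokine mRNAs, had 14.1, 19.9 and 14.8 CPM in MSC/MMC+ and 19.8, 16.6 and 16.99 CPM in MSC/MMC-, against 8.401, 3.93 and 8.001 CPM in control cells. The groups did not overlap, and the log2 fold changes were 1.27 ± 0.26 (adjusted p = 0.00993) and 1.396 ± 0.26 (adjusted p = 0.00596); without replicate 3 of MSC/MMC+ the adjusted p in that co-culture was 0.0566. MCL1 had 353, 342 and 351 CPM in MSC/MMC+ and 307, 267 and 277 CPM in MSC/MMC-, against 229.8, 178 and 211 CPM in control cells. For MCL1 the log2 fold changes were 0.77 ± 0.13 (adjusted p = 0.00397) and 0.47 ± 0.13 (adjusted p = 0.0472). SGK1, a serum and glucocorticoid induced kinase, had 123, 136 and 126 CPM and 110.0, 130.5 and 115 CPM in MSC/MMC+ and MSC/MMC-, against 83.4, 86.8 and 75.5 CPM in control cells, and differed by 0.66 ± 0.12 (adjusted p = 0.00668) and 0.54 ± 0.12 (adjusted p = 0.01902). These rises were modest beside those of FOS, and for each the co-culture libraries lay above all control libraries. KLF6, a zinc finger factor, had 139.5, 173 and 127 CPM in MSC/MMC+ and 128, 139 and 128 CPM in MSC/MMC-, against 89.4, 98.5 and 94.96 CPM in control cells. For KLF6 the log2 fold changes were 0.65 ± 0.14 (adjusted p = 0.0129) and 0.49 ± 0.14 (adjusted p = 0.0458). KLF10, a TGF-beta inducible relative, had 90.1, 86.0 and 110.3 CPM and 98.9, 92.3 and 109.9 CPM in MSC/MMC+ and MSC/MMC-, against 70.7, 61.8 and 63.8 CPM in control cells. For KLF10 the log2 fold changes were 0.55 ± 0.14 (adjusted p = 0.03202) and 0.63 ± 0.14 (adjusted p = 0.0169). All co-culture libraries were above control in both KLF genes. Several of these calls rested on single libraries. In MSC/MMC+ KLF10 lost its call without any library but control replicate 2 (adjusted p up to 0.162), KLF6 without replicate 2 or 3 of that co-culture or control replicate 4 (up to 0.09998), and SGK1 without replicate 3 of it or control replicate 4 (up to 0.0637). In MSC/MMC- MCL1 lost it without any library but control replicate 2 (up to 0.176), KLF6 without any but control replicate 3 (up to 0.157), SGK1 without replicate 3 or 4 of that co-culture or control replicate 4 (up to 0.121), and KLF10 without replicate 2 or 4 of it or control replicate 4 (up to 0.0892).

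IER3, an early gene that modulates ERK and survival signalling, rose steeply and was very low in control cells, at 8 to 10 reads in a library. It had 1.06, 0.667 and 0.717 CPM in MSC/MMC+ co-culture and 0.281, 0.406 and 0.262 CPM in MSC/MMC- co-culture, against 0.0902, 0.0927 and 0.0851 CPM in control cells. For IER3 the log2 fold changes were 3.18 ± 0.32 (adjusted p = 8.62e-05) and 1.82 ± 0.33 (adjusted p = 0.004903). The 3 groups did not overlap, and their order was that of the summed stromal markers. TERT, carried by the MSC line, had the other order between the co-cultures, at 3.00 to 4.50 CPM in MSC/MMC+ and 5.94 to 7.97 CPM in MSC/MMC-. In the 5 replicate 1 libraries outside co-culture, which held the most stromal marker RNA, IER3 stood at 13.7 to 23.8 CPM, above every other library. FOS had 1.31 to 8.96 CPM in those 5 libraries, against 22.8 to 95.2 CPM in co-culture and at most 2.48 CPM in control cells. FOSB had 1.74 to 3.33 CPM there against 6.14 to 26.5 CPM in co-culture, JUNB 40.6 to 57.0 CPM against 58.2 to 89.2 CPM, RHOB 92.9 to 129.8 CPM against 176 to 214 CPM, DUSP1 89.7 to 102 CPM against 137 to 201 CPM, and DUSP6 28.8 to 59.4 CPM against 87.9 to 123 CPM. For these 6 genes, FOS included, the 5 libraries lay below every co-culture library of replicates 2 to 4. So they did for NR4A2 (0.468 to 0.828 against 1.03 to 1.89 CPM), KLF10 (49.3 to 83.2 against 86.0 to 110.3 CPM), SGK1 (84.4 to 103 against 110 to 136 CPM) and DUSP4 (88.9 to 154 against 249 to 292 CPM). The share of all genes that did so was not counted. All these genes were picked as called higher in co-culture in the same co-culture libraries. Their lying below co-culture is thus partly fixed by that choice, and no conclusion is drawn from it. For FOSB, JUNB, RHOB and DUSP1 the 5 libraries also lay above every control library of those replicates, whose highest values were 1.66, 27.2, 81.6 and 60.8 CPM. For FOS, DUSP6, NR4A2, KLF10, SGK1 and DUSP4 they overlapped control. EGR1 differed, with 14.0 to 56.4 CPM in the same 5 libraries against 10.9 to 20.9 CPM in co-culture. So did ZFP36 (13.7 to 19.0 against 14.1 to 19.9 CPM), KLF6 (137 to 188 against 127.5 to 173 CPM) and MCL1 (180 to 276 against 267 to 353 CPM). These 5 libraries were not co-cultures, and the part of MSC RNA in the co-culture values was not tested for any member. Replicate 1 of MSC/MMC-, the ribosomal-rich library, had 16.6 CPM of FOS, 0.220 CPM of FOSB, 47.2 CPM of JUNB and 1.29 CPM of EGR1. It had 48.8 CPM of RHOB and 33.7 CPM of DUSP6, and all these values lay below the other MSC/MMC- libraries. Its 170.0 CPM of DUSP1 lay above them.

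**Figure D3:**
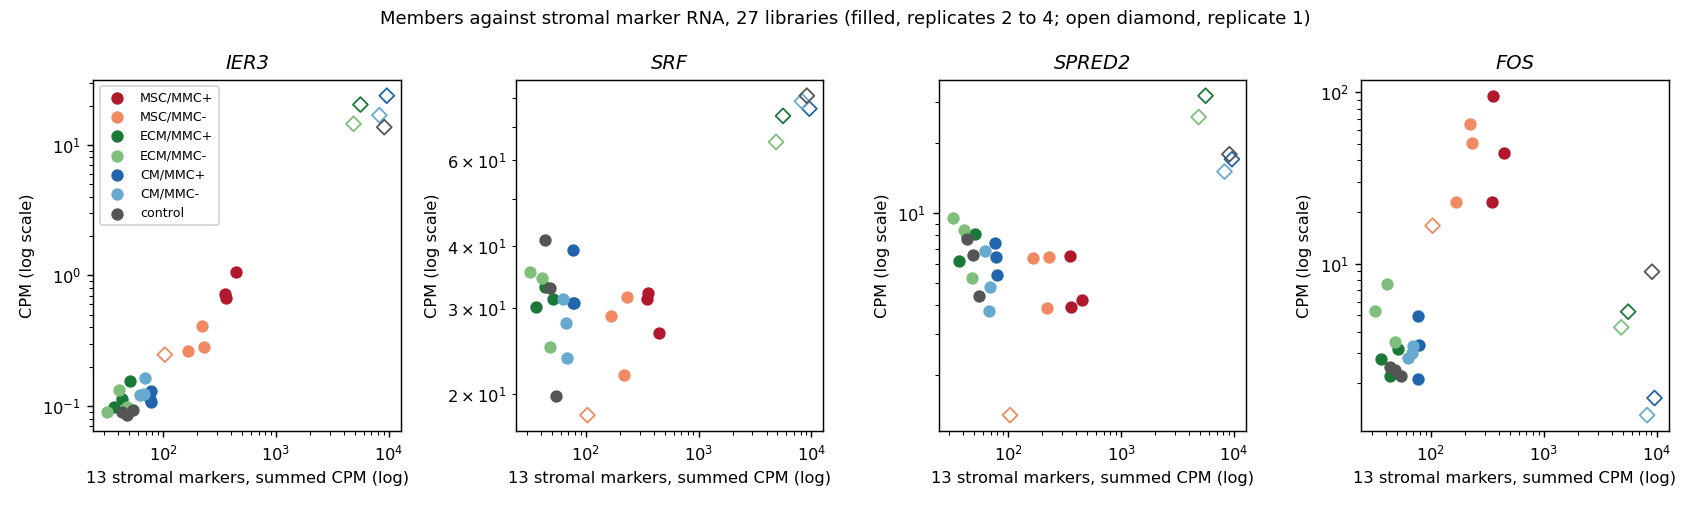
CPM of IER3, SRF, SPRED2 and FOS against the summed CPM of 13 stromal markers, both on log scales, in 27 libraries; filled points are replicates 2 to 4 and open diamonds replicate 1, coloured by group. IER3 is highest, at 13.7 to 23.8 CPM, in the 5 libraries with the most stromal marker RNA, and FOS is highest, at 22.8 to 95.2 CPM, in the co-culture libraries.

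The feedback genes divided in co-culture. DUSP1 had 159.5, 201 and 138 CPM in MSC/MMC+ and 137, 167 and 155 CPM in MSC/MMC-, against 60.8, 46.4 and 53.9 CPM in control cells. For DUSP1 the log2 fold changes were 1.64 ± 0.17 (adjusted p = 0.000131) and 1.52 ± 0.17 (adjusted p = 0.000262). DUSP6, the cytoplasmic phosphatase of ERK, had 98.9, 113 and 87.9 CPM and 105, 123 and 94.03 CPM in MSC/MMC+ and MSC/MMC-, against 55.8, 45.9 and 44.03 CPM in control cells. For DUSP6 the log2 fold changes were 1.05 ± 0.16 (adjusted p = 0.00152) and 1.16 ± 0.16 (adjusted p = 0.000889). In both genes every co-culture library lay above every control library. DUSP4 rose less, to 261, 273 and 264 CPM in MSC/MMC+ and 292, 249 and 271 CPM in MSC/MMC-, against 221, 144 and 165 CPM in control cells. For DUSP4 the log2 fold changes were 0.600 ± 0.16 (adjusted p = 0.0422) and 0.62 ± 0.16 (adjusted p = 0.0326). SPRY2, an inhibitor of receptor tyrosine kinase signalling, fell instead. It had 33.5, 38.1 and 37.8 CPM in MSC/MMC+ and 35.96, 34.4 and 31.7 CPM in MSC/MMC-, below the control libraries at 62.5, 58.4 and 48.6 CPM, with log2 fold changes of -0.62 ± 0.14 (adjusted p = 0.0143) and -0.72 ± 0.14 (adjusted p = 0.00638). DUSP4 lost its call without any library but control replicate 2 in MSC/MMC+ (adjusted p up to 0.192) and without MSC/MMC- replicate 2 or 4 or control replicate 3 or 4 in MSC/MMC- (up to 0.146). The SPRY2 call in MSC/MMC+ was lost without replicate 2 or 3 of that group, with an adjusted p of up to 0.0831. SPRY4 pointed the same way without a call, at -0.36 and -0.84 on the log2 scale, and DUSP5, SPRY1, SPRED1, SPRED2, ETV4 and ETV5 were not called in co-culture against control.

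**Figure D4:**
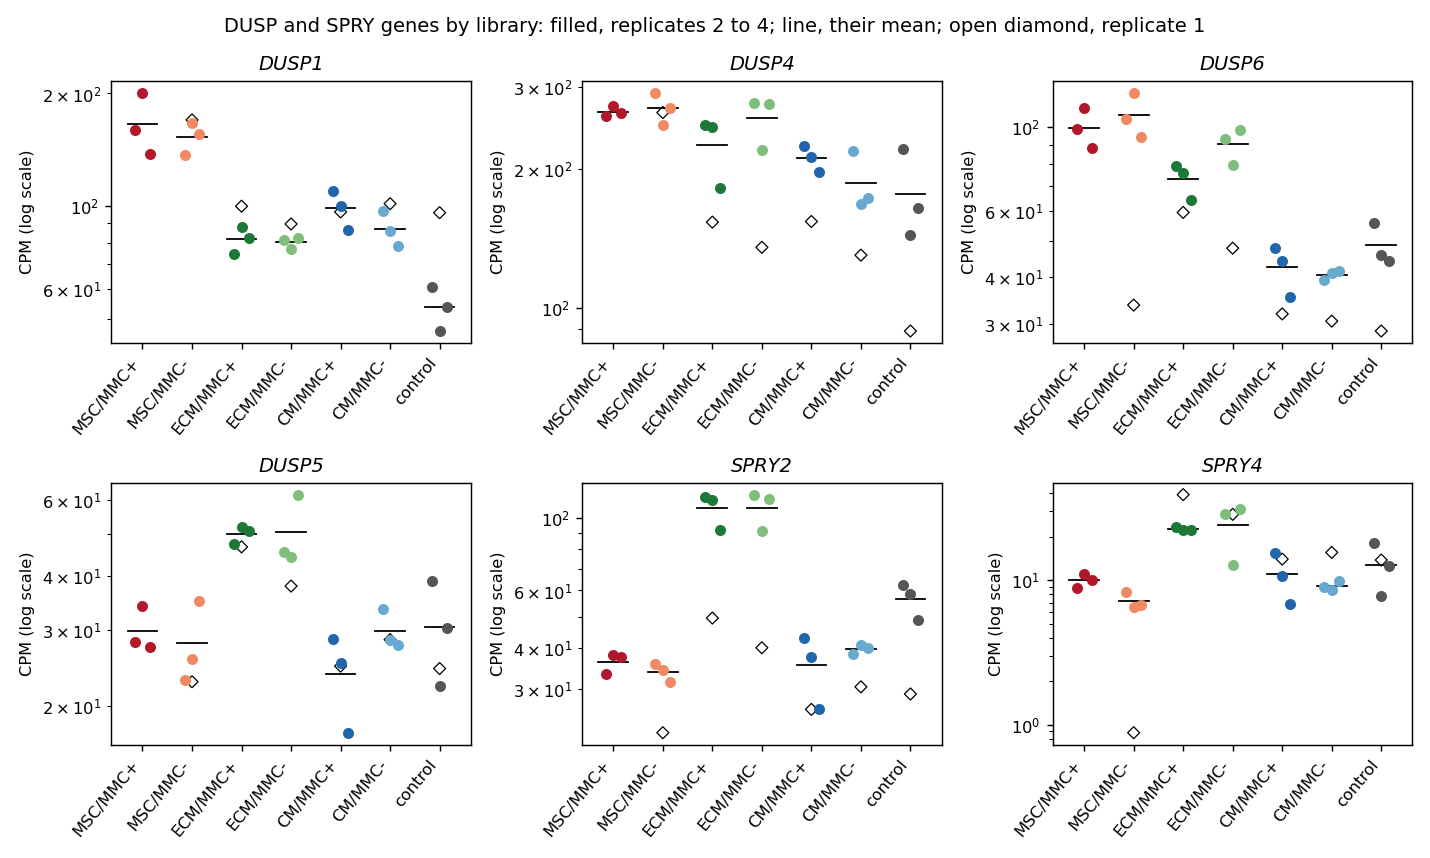
CPM on a log scale of DUSP1, DUSP4, DUSP6, DUSP5, SPRY2 and SPRY4 in the 7 groups; filled points are replicates 2 to 4, the line is their mean and the open diamond is replicate 1. DUSP1 is highest in co-culture, at 137 to 201 CPM, while SPRY2 is highest on ECM, at 90.8 to 117 CPM, and lower in co-culture, at 31.7 to 38.1 CPM.

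Of the 17 members called in MSC/MMC+, 10 stayed called whichever of the 6 libraries was left out, and of the 17 in MSC/MMC-, 11 did. FOS, FOSB, FOSL1, JUNB, EGR1, IER3, RHOB, DUSP1 and DUSP6 did so in both. The count fell to 10 without replicate 3 of MSC/MMC+, and in MSC/MMC- to 11 without replicate 4 of either group. With replicate 1 of control and MSC/MMC- added, which carry different amounts of stromal RNA, 0 members were called in either co-culture.

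On matrix alone fewer members were called, and SPRY2 was higher instead of lower. On ECM/MMC- 5 of 36 members were called against control, all higher, where 0.649% of all genes were called, 0.461% higher. On ECM/MMC+ 1 member was called, SPRY2, where 0.3% of all genes were called. That count depended on the setting: for ECM/MMC+ it was 6 with DESeq2, 4 with a replicate block, 4 without a filter on low counts and 3 in 1 fit of all 21 libraries. For ECM/MMC- it was 7, 7, 8 and 5 in the same settings. The difference between the matrices was tested directly and called no member. Of 5 tested epithelial markers 1 was called lower on each matrix. SPRY2 had 116, 113 and 91.6 CPM on ECM/MMC+ and 117, 90.8 and 114 CPM on ECM/MMC-, above the control libraries at 62.5, 58.4 and 48.6 CPM, with log2 fold changes of 0.92 ± 0.18 (adjusted p = 0.0442) and 0.92 ± 0.18 (adjusted p = 0.0264). EGR1 had 6.38, 5.01 and 3.37 CPM on ECM/MMC+ and 8.03, 4.68 and 5.69 CPM on ECM/MMC-, against 2.599, 1.31 and 1.23 CPM in control cells. No matrix library overlapped control, and the log2 fold change was 1.51 ± 0.32 (adjusted p = 0.0624) on ECM/MMC+ and 1.83 ± 0.33 (adjusted p = 0.0165) on ECM/MMC-, so that of the pair only the value on ECM/MMC- was called. DUSP6 had 78.9, 75.5 and 64.2 CPM on ECM/MMC+ and 92.9, 79.2 and 98.4 CPM on ECM/MMC-, against 55.8, 45.9 and 44.03 CPM in control cells. For DUSP6 the log2 fold changes were 0.58 ± 0.15 (adjusted p = 0.157) and 0.89 ± 0.15 (adjusted p = 0.0138). RHOB had 102, 141 and 113 CPM and 152, 116 and 122 CPM on ECM/MMC+ and ECM/MMC-, against 81.6, 54.2 and 73.3 CPM in control cells. For RHOB the log2 fold changes were 0.76 ± 0.18 (adjusted p = 0.1103) and 0.89 ± 0.18 (adjusted p = 0.0357). KLF6 had 132, 132 and 137 CPM and 175, 137 and 142 CPM on ECM/MMC+ and ECM/MMC-, against 89.4, 98.5 and 94.96 CPM in control cells. For KLF6 the log2 fold changes were 0.503 ± 0.13 (adjusted p = 0.157) and 0.68 ± 0.13 (adjusted p = 0.0257). In each of these the 6 matrix libraries were above the 3 control libraries. So they were for DUSP1, not called on either matrix, at 74.7 to 87.9 CPM against 46.4 to 60.8 CPM. Wholly above control were 12 of the 36 tested members on ECM/MMC+ and 9 on ECM/MMC-, beside 6.57% and 5.66% of all genes tested. FOS was not called on matrix: it had 3.18, 2.21 and 2.77 CPM on ECM/MMC+ and 7.61, 3.49 and 5.26 CPM on ECM/MMC- (0.200 ± 0.29, adjusted p = 0.999 and 1.202 ± 0.29, adjusted p = 0.0857). These matrix calls rest on few libraries: the count on ECM/MMC- was 0 without replicate 2 of that group or without control replicate 3 or 4, and 1 without ECM/MMC- replicate 4, and the 5 calls had adjusted p of up to 0.113 to 0.204 in these fits. SPRY2 on ECM/MMC+ lost its call whichever of the 6 libraries was left out, with an adjusted p of up to 0.274.

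Conditioned medium left nearly all members within the test's threshold. In CM/MMC+ 1 member was called against control, DUSP1, where 0.505% of all genes were called; DESeq2 and the replicate block each called 3. DUSP1 had 109.7, 100.3 and 86.2 CPM in CM/MMC+ and 96.9, 85.96 and 78.4 CPM in CM/MMC-, against 60.8, 46.4 and 53.9 CPM in control cells. All 6 libraries lay above control, and the log2 fold changes were 0.88 ± 0.15 (adjusted p = 0.01196) and 0.72 ± 0.15 (adjusted p = 0.239). The call was lost without replicate 2 or 3 of CM/MMC+ or without control replicate 3 or 4, with an adjusted p of up to 0.0679. In CM/MMC- edgeR called 0 of 36 members, where 0% of all genes were called. There 2 members, DUSP1 and SPRY2, had an unadjusted p under 0.05, as did 4.7% of all genes, and DESeq2 called 1 member. SPRY2 was below control in both media, with 43.1, 37.5 and 26.1 CPM in CM/MMC+ and 38.4, 41.1 and 40.2 CPM in CM/MMC-, against 62.5, 58.4 and 48.6 CPM in control cells, and was not called (-0.66 ± 0.18, adjusted p = 0.155 and -0.48 ± 0.18, adjusted p = 0.8598). FOS stayed near control at 4.92, 3.34 and 2.13 CPM in CM/MMC+ and 3.02, 3.31 and 2.805 CPM in CM/MMC- (0.56 and 0.39 on the log2 scale, neither called). As DUSP1 did, 5.38% of all genes tested lay wholly above control in CM/MMC+ and 3.46% in CM/MMC-. Of 5 tested epithelial markers 2 were called higher in CM/MMC+ and 0 in CM/MMC-.

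The ways of exposure were then compared with each other, each as the mean of senescent and young MSCs, which leaves the control libraries out of the difference. On ECM 12 members were called against CM, 11 higher and 1 lower, where 11.8% of all genes were called, 6.79% higher and 5.02% lower. Epithelial markers of the hybrid's other parent moved too: 3 of 5 tested were lower on ECM, with a median log2 fold change of -1.31, and the 6 summed to 1012 to 1309 CPM on ECM and 3336 to 5171 CPM in CM, with at most 1 at 0. Their part in the member values was not tested. SPRY2 differed by 1.49 ± 0.13 (adjusted p = 2.86e-06) on the log2 scale, EGR1 by 2.12 ± 0.24 (adjusted p = 2.75e-05), SPRY4, a second Sprouty protein, by 1.21 ± 0.24 (adjusted p = 0.00354), and DUSP6 by 0.95 ± 0.11 (adjusted p = 3.51e-05). SPRY4 had 23.3, 22.4 and 22.3 CPM on ECM/MMC+ and 28.98, 12.8 and 31.2 CPM on ECM/MMC-, against 15.6, 10.7 and 6.81 CPM in CM/MMC+ and 9.01, 8.54 and 9.88 CPM in CM/MMC-; replicate 3 of ECM/MMC- was low and overlapped the CM libraries. DUSP5, a nuclear ERK phosphatase, had 47.5, 51.99 and 50.96 CPM and 45.6, 44.3 and 61.8 CPM on ECM/MMC+ and ECM/MMC-, against 28.5, 25.2 and 17.3 CPM and 33.5, 28.4 and 27.7 CPM in CM/MMC+ and CM/MMC-, with no overlap (0.902 ± 0.15, adjusted p = 0.00107). Of all genes tested 4.75% lay wholly higher on ECM than in CM. The feedback genes DUSP5, DUSP6, SPRY2, SPRY4 and SPRED1 were thus all higher on ECM than in CM; SPRED1, a Sprouty relative that recruits neurofibromin, had 49.5, 41.3 and 49.97 CPM and 51.3, 41.9 and 58.3 CPM on ECM/MMC+ and ECM/MMC-, against 42.1, 36.4 and 37.3 CPM and 28.03, 32.3 and 39.8 CPM in CM/MMC+ and CM/MMC-. The difference for SPRED1 was 0.42 ± 0.11 (adjusted p = 0.0233). Among early genes FOSL1 (0.73 ± 0.17, adjusted p = 0.00893), KLF6 (0.59 ± 0.09, adjusted p = 0.000616), NR4A3 (0.99 ± 0.24, adjusted p = 0.0132), NR4A1 (0.78 ± 0.23, adjusted p = 0.0372) and PHLDA1 (0.46 ± 0.11, adjusted p = 0.0147) were higher on ECM. FOSL1 had 527, 538 and 440.4 CPM on ECM/MMC+ and 489, 380.0 and 561 CPM on ECM/MMC-, against 322, 288 and 184 CPM in CM/MMC+ and 390.2, 286 and 281 CPM in CM/MMC-, with replicate 3 of ECM/MMC- inside the range of CM. ARC, a neuronal early gene product also transcribed by serum in other cells, was lower on ECM, with 1.84, 1.99 and 2.01 CPM on ECM/MMC+ and 2.18, 1.62 and 1.74 CPM on ECM/MMC-, against 4.04, 3.60 and 3.46 CPM in CM/MMC+ and 2.89, 2.48 and 2.93 CPM in CM/MMC-. The difference for ARC was -0.77 ± 0.15 (adjusted p = 0.00312). NR4A1 and SPRED1 each lost the call in 8 of the 12 fits that left out 1 library, with adjusted p of up to 0.103 for NR4A1 and 0.0736 for SPRED1.

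Co-culture differed from CM in 17 members, 15 higher and 2 lower, where 17% of all genes were called, 9.09% higher and 7.92% lower. From ECM it differed in 26 members, 17 higher and 9 lower, where 26.9% of all genes were called, 13.8% higher and 13.1% lower. Of the 36 members these counts are 47.2% against CM and 72.2% against ECM. In both comparisons 13 of 13 stromal and 8 of 10 tested endothelial markers were also higher in co-culture. Of 5 tested epithelial markers 1 was lower than in CM, and 3 were higher than on ECM (median log2 fold change 1.10). The part of these shifts in the member values was not tested. Against CM the largest differences were those of FOS (3.901 ± 0.33, adjusted p = 1.68e-07 on the log2 scale), EGR1 (3.47 ± 0.24, adjusted p = 1.21e-08), FOSB (3.08 ± 0.40, adjusted p = 3.12e-05), IER3 (1.96 ± 0.20, adjusted p = 2.07e-06), DUSP6 (1.28 ± 0.11, adjusted p = 1.52e-07) and JUNB (1.26 ± 0.14, adjusted p = 3.58e-06). ETV4, an ERK-responsive ETS factor, was lower, with 54.96, 51.3 and 59.4 CPM in MSC/MMC+ and 44.9, 41.9 and 47.9 CPM in MSC/MMC-, against 72.1, 70.4 and 57.8 CPM in CM/MMC+ and 72.8, 50.5 and 58.8 CPM in CM/MMC- (-0.39 ± 0.13, adjusted p = 0.0378); this call was lost in 9 of 12 fits without 1 library, with an adjusted p of up to 0.101, and that of DUSP4 (0.400 ± 0.12, adjusted p = 0.0266) in 6, with one of up to 0.0727. FOSL1 was also lower than in CM (-0.91 ± 0.16, adjusted p = 0.0005299). SPRY2 was not called between co-culture and CM. Against ECM the early factors FOS (3.67 ± 0.32, adjusted p = 4.69e-08), FOSB (2.704 ± 0.39, adjusted p = 2.67e-05), JUNB (1.43 ± 0.14, adjusted p = 1.42e-07) and EGR1 (1.35 ± 0.21, adjusted p = 7.06e-05) were higher in co-culture, while SPRY2 (-1.63 ± 0.12, adjusted p = 3.05e-09), SPRY4 (-1.499 ± 0.22, adjusted p = 3.38e-05), FOSL1 (-1.65 ± 0.16, adjusted p = 1.58e-07) and DUSP5 (-0.83 ± 0.15, adjusted p = 0.000343) were lower. SPRED1 was lower as well (-0.399 ± 0.10, adjusted p = 0.00648). The other members higher in co-culture than on ECM were IER3 (2.12 ± 0.20, adjusted p = 1.47e-07), DUSP1 (0.95 ± 0.11, adjusted p = 1.22e-06), ZFP36 (0.803 ± 0.18, adjusted p = 0.00216), RHOB (0.604 ± 0.12, adjusted p = 0.000513), SGK1 (0.57 ± 0.08, adjusted p = 1.9e-05), MCL1 (0.503 ± 0.11, adjusted p = 0.00137), DUSP6 (0.33 ± 0.10, adjusted p = 0.0248) and KLF10 (0.296 ± 0.10, adjusted p = 0.0389), with those named next. SPRY2 and SPRY4 thus differed between co-culture and ECM in the opposite direction to FOS, with 6 libraries against 6 that did not overlap for either gene. Of all genes tested 7.23% lay wholly lower in co-culture than on ECM.

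Further members were called between co-culture and ECM without being called against control. JUND, the AP-1 subunit of resting cells, had 80.9, 107 and 71.3 CPM in MSC/MMC+ and 87.1, 78.5 and 100.2 CPM in MSC/MMC-, against 51.4, 63.3 and 42.9 CPM on ECM/MMC+ and 67.5, 56.1 and 55.95 CPM on ECM/MMC-. The difference for JUND was 0.62 ± 0.18 (adjusted p = 0.01298). IER2 had 261, 308 and 262 CPM and 247, 217 and 270.2 CPM in MSC/MMC+ and MSC/MMC-, against 175, 172 and 164 CPM and 177, 163 and 230.4 CPM on ECM/MMC+ and ECM/MMC-. The difference for IER2 was 0.51 ± 0.15 (adjusted p = 0.0193). ATF3, a stress-induced factor, had 13.4, 17.2 and 10.8 CPM and 17.3, 22.3 and 18.95 CPM in MSC/MMC+ and MSC/MMC-, against 10.6, 12.2 and 10.4 CPM and 12.6, 16.8 and 8.13 CPM on ECM/MMC+ and ECM/MMC-. The difference for ATF3 was 0.45 ± 0.15 (adjusted p = 0.0276). ARC was also higher in co-culture, with 3.097, 2.499 and 2.22 CPM in MSC/MMC+ and 2.97, 2.37 and 2.71 CPM in MSC/MMC- (0.45 ± 0.14, adjusted p = 0.0228). These 4 genes were higher in co-culture than on ECM. The lower ones included PHLDA1, a pleckstrin homology protein induced downstream of ERK, with 128, 137 and 136 CPM in MSC/MMC+ and 157, 147 and 174 CPM in MSC/MMC-, against 199, 182 and 184 CPM on ECM/MMC+ and 206, 166 and 237 CPM on ECM/MMC-. The difference for PHLDA1 was -0.45 ± 0.10 (adjusted p = 0.00218). NR4A1 had 3.43, 3.86 and 2.897 CPM and 3.06, 2.29 and 2.21 CPM in MSC/MMC+ and MSC/MMC-, against 5.81, 5.54 and 3.43 CPM and 5.62, 3.31 and 4.47 CPM on ECM/MMC+ and ECM/MMC-. The difference for NR4A1 was -0.71 ± 0.21 (adjusted p = 0.0181). NR4A3 had 0.4496, 0.645 and 0.774 CPM and 0.631, 0.3895 and 0.328 CPM in MSC/MMC+ and MSC/MMC-, against 0.947, 0.953 and 0.331 CPM and 1.19, 0.637 and 0.933 CPM on ECM/MMC+ and ECM/MMC-. The difference for NR4A3 was -0.67 ± 0.24 (adjusted p = 0.0428). The NR4A family was therefore split: NR4A2 was higher in co-culture than on ECM (0.98 ± 0.24, adjusted p = 0.004003) and its relatives lower. SPRED2, the second SPRED protein of the set, had 4.21, 3.95 and 6.498 CPM and 6.46, 3.91 and 6.42 CPM in MSC/MMC+ and MSC/MMC-, against 8.13, 7.95 and 6.22 CPM and 8.44, 5.24 and 9.52 CPM on ECM/MMC+ and ECM/MMC-. The difference for SPRED2 was -0.56 ± 0.20 (adjusted p = 0.0388). Leaving out 1 of the 12 libraries ended the call in 9 fits for KLF10 (adjusted p up to 0.123), 8 for NR4A3 (up to 0.117), 7 for SPRED2 (up to 0.1004), 5 for ATF3 (up to 0.0982), 4 each for ARC (up to 0.0748) and DUSP6 (up to 0.0894), and 2 for IER2, without MSC/MMC+ replicate 3 or MSC/MMC- replicate 4 (up to 0.0541). For NR4A1 it ended without ECM/MMC- replicate 2 (0.0533).

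Early and feedback genes were set side by side as classes, without a test because the members were chosen by name with earlier results known. The median log2 fold change against control was 0.60 for 25 early genes and -0.14 for 11 feedback genes in MSC/MMC+, and 0.49 and -0.15 in MSC/MMC-, beside 0.02 for all genes tested in MSC/MMC+ and 0.01 in MSC/MMC-. On matrix the feedback genes had the higher medians: 0.22 for early and 0.35 for feedback genes on ECM/MMC+, and 0.25 and 0.54 on ECM/MMC-, beside -0.01 and 0.00 for all genes tested. The early class thus had the higher median in co-culture and the feedback class on matrix. In medium they were 0.27 and -0.10 in CM/MMC+ and 0.01 and -0.23 in CM/MMC-. The mean log2 level of all 27 early genes, less that of the 12 feedback genes and set to 0 in control cells, was 0.83 ± 0.19 in MSC/MMC+, 0.77 ± 0.12 in MSC/MMC-, -0.12 ± 0.05 on ECM/MMC+, -0.06 ± 0.13 on ECM/MMC-, 0.23 ± 0.07 in CM/MMC+ and 0.12 ± 0.14 in CM/MMC- (SD over 3 libraries), beside an SD of 0.08 over the control libraries. The classes were not uniform, since FOSL1 is an early gene that fell in co-culture and DUSP1, DUSP4 and DUSP6 are feedback genes that rose there. In co-culture the early mean leans on the large rises of FOS, FOSB, EGR1 and IER3. The means also include EGR2, EGR3 and DUSP2, which failed the filter on low counts. Control replicate 3 was low in both classes, at -0.35 for early and -0.25 for feedback genes, with 4 of the 27 early genes above the control mean. Ribosomal protein genes took 10.4% of its counts, against 7.04% and 7.66% in the other control libraries. ECM/MMC- replicate 3, the lowest of its group, had 12.5%, against 6.30% and 5.79% in replicates 2 and 4 of that group; the part of this in the member values was not tested. Replicate 1 outside co-culture, the libraries rich in stromal RNA, stood at 0.90 to 1.12 for early and 0.21 to 0.77 for feedback genes, and replicate 1 of MSC/MMC- at -0.58 and -0.96.

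**Figure D5:**
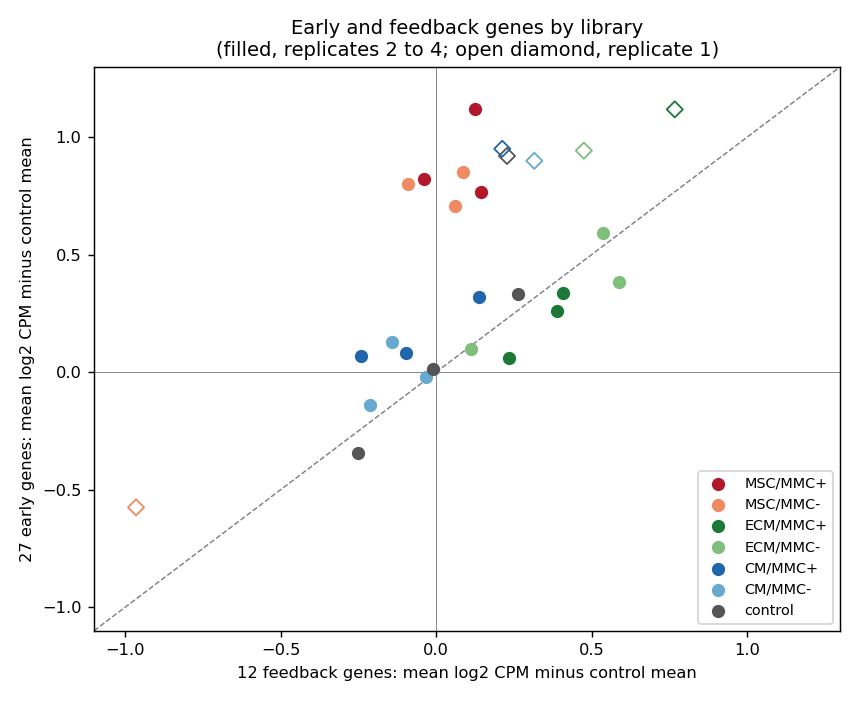
Mean log2 CPM of the 12 feedback genes (horizontal axis) and of the 27 early genes (vertical axis), each less the control mean, by library and coloured by group; filled points are replicates 2 to 4 and open diamonds replicate 1, and the dashed line marks equal values. Co-culture libraries of replicates 2 to 4 sit at 0.71 to 1.12 on the early axis and between -0.09 and 0.15 on the feedback axis, and the ECM libraries of these replicates at 0.06 to 0.59 and 0.11 to 0.59.

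No member passed the test between senescent and young MSCs in any of the 3 ways of exposure. Between MSC/MMC+ and MSC/MMC- edgeR called 0 of 36 members, where 0.395% of all genes were called. An unadjusted p under 0.05 was found for 3 members and for 5.6% of all genes, and DESeq2 called 1 member. IER3 came nearest, with 0.815 ± 0.215 CPM in MSC/MMC+ and 0.316 ± 0.0786 CPM in MSC/MMC- (1.36 ± 0.27, adjusted p = 0.0724), beside the stromal sums of 350.4 to 445 and 167 to 231 CPM. TERT went the other way, at 3.00 to 4.50 CPM in MSC/MMC+ and 5.94 to 7.97 CPM in MSC/MMC-. ATF3 was lower in MSC/MMC+ (-0.499 ± 0.19, adjusted p = 0.684) and MCL1 higher (0.298 ± 0.13, adjusted p = 0.8704), neither called. Between ECM/MMC+ and ECM/MMC- 0 members were called, where 0% of all genes were called. An unadjusted p under 0.05 was found for 2 members and for 0.783% of all genes, and DESeq2 called 0 members. FOS had 2.72 ± 0.491 CPM on ECM/MMC+ and 5.45 ± 2.07 CPM on ECM/MMC- (-1.002 ± 0.29, adjusted p = 0.9999). Between CM/MMC+ and CM/MMC- 0 members were called, where 0.0167% of all genes were called. An unadjusted p under 0.05 was found for 4 members and for 5.41% of all genes, and DESeq2 called 0 members. RHOB had 122 ± 10.8 CPM in CM/MMC+ and 75.1 ± 8.55 CPM in CM/MMC- (0.69 ± 0.18, adjusted p = 0.485), with no overlap. Of all genes tested 6.68% lay wholly higher in CM/MMC+ than in CM/MMC-. FOSB on ECM (-1.22 ± 0.49, adjusted p = 0.9999) and JUNB, KLF10 and SGK1 in CM (0.44 ± 0.19, adjusted p = 0.765, 0.37 ± 0.15, adjusted p = 0.765 and 0.37 ± 0.13, adjusted p = 0.765) also had an unadjusted p under 0.05 and were not called. Contrasts of the senescence effect between ways of exposure also called 0 members each, with edgeR and with DESeq2. These were ECM less CM, co-culture less CM and co-culture less ECM, where edgeR called 0%, 0.103% and 0.0487% of all genes. In the same order, 4, 3 and 3 members had an unadjusted p under 0.05, beside 2.13%, 5.51% and 2.93% of all genes.

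The 7 tested members called in none of the 12 comparisons were FOSL2, JUN, IER5, MYC, SRF, SPRY1 and ETV5. MYC, the growth-regulating transcription factor, averaged 157 ± 11.3 CPM in MSC/MMC+, 168 ± 12.7 CPM in MSC/MMC- and 165 ± 31.5 CPM in control cells. SRF, the factor that binds CArG boxes, averaged 30.02 ± 2.95 CPM, 27.4 ± 4.98 CPM and 31.4 ± 10.8 CPM in the same groups. A p above the threshold does not show that these levels were equal.

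Other genes of the pathway were counted in lists that do not overlap the set. Of 29 genes of the ERK cascade 2 were called higher in MSC/MMC+ and 5 in MSC/MMC-, with none lower, beside 5.82% and 6.71% of all genes called higher. Of 15 genes of the JNK and p38 cascades 1 was called higher in MSC/MMC+, and 2 higher and 1 lower in MSC/MMC-, beside 8.05% and 9.68% of all genes called. Of 20 other early genes 5 were called higher and 1 lower in MSC/MMC+, and 7 and 3 in MSC/MMC-. Of 15 tested genes of other ERK output and feedback 2 were higher and 1 lower in MSC/MMC+, and 1 and 1 in MSC/MMC-. Between ways of exposure, other early genes were called 7 higher and 6 lower on ECM than in CM, 7 and 2 in co-culture than in CM, and 7 and 6 in co-culture than on ECM. Genes of the ERK cascade were called 1 and 0, 5 and 0, and 3 and 2 in the same comparisons, where 11.8%, 17% and 26.9% of all genes were called. HES1, a Notch target that is also an early gene, averaged 59.8 ± 10.7 CPM in MSC/MMC+ and 67.3 ± 16.6 CPM in MSC/MMC-, against 4.896 ± 0.855 CPM in control cells (3.62 ± 0.24, adjusted p = 8.12e-06 and 3.79 ± 0.24, adjusted p = 9.41e-06 on the log2 scale), and 16.9 ± 3.21 CPM in CM/MMC+ (1.79 ± 0.31, adjusted p = 0.0152). ERRFI1, a feedback inhibitor of the EGF receptor, averaged 23.02 ± 2.67 CPM and 25.7 ± 3.34 CPM in MSC/MMC+ and MSC/MMC-, against 67.1 ± 6.26 CPM in control cells (-1.53 ± 0.15, adjusted p = 7.71e-05 and -1.37 ± 0.15, adjusted p = 0.0002205), and was also lower in CM/MMC+ at 33.9 ± 2.702 CPM (-0.98 ± 0.16, adjusted p = 0.0119). ERRFI1 thus fell in co-culture as SPRY2 did. RPS6KA2, a kinase activated by ERK, rose in MSC/MMC- to 27.7 ± 7.02 CPM, against 9.98 ± 2.82 CPM in control cells (1.48 ± 0.23, adjusted p = 0.00236), and MAP2K6, an activator of p38, rose in MSC/MMC+ to 17.2 ± 1.16 CPM, against 7.04 ± 2.097 CPM (1.299 ± 0.20, adjusted p = 0.00215). BHLHE40, a basic helix-loop-helix repressor, rose in MSC/MMC- (1.05 ± 0.18, adjusted p = 0.003395). LIF, a cytokine of the interleukin 6 family, rose in MSC/MMC+ against control (1.43 ± 0.21, adjusted p = 0.00125) and was the only gene of these 4 lists called between MSC/MMC+ and MSC/MMC-, with 2.35 ± 0.236 CPM and 0.834 ± 0.0175 CPM (1.495 ± 0.21, adjusted p = 0.00819). In the same comparison 5 of 13 stromal markers were called higher in MSC/MMC+ (median log2 fold change 0.73). The part of stromal RNA in the LIF value was not tested. On ECM/MMC- BTG2, an antiproliferative early gene, was lower than in control cells (-0.86 ± 0.17, adjusted p = 0.0297), and no other gene of these lists was called on either matrix or in CM/MMC-.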

How the data were processed

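RNA sequencing libraries from EA.hy926 cells were compared as gene counts that the authors deposited in 1 table, not normalised. Per the submitters' processing notes, HISAT2 2.2.1 aligned the reads, featureCounts 2.0.1 counted them, and the build was GRCh38 (hg38). The kit was directional per the labels' protocols. Which strand setting and annotation release were used in counting is not given in the sources used here, so antisense and overlapping genes may share reads. The table had 60648 entries, of which 44 copies of pseudoautosomal genes on Y, with 109832 counts, were dropped and 60462 had a symbol.

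Counts of replicates 2 to 4 were tested in R 4.3.3 with edgeR 4.0.16 (limma 3.58.1 installed): filterByExpr with a minimum count of 10, TMM scaling, quasi-likelihood F-tests and Benjamini-Hochberg adjustment over all genes tested, called under 0.05. The first fit held control, ECM and CM (15 libraries, 18015 genes), the second control and both co-cultures (9 libraries, 17729 genes), and the third all 7 groups for comparisons of co-culture with ECM or CM (21 libraries, 18492 genes). Within a group, counts of any pair of libraries differed by more than sampling noise (chi-square per degree of freedom at least 22.1). Class levels are means of log2 CPM with a prior count of 2. DESeq2 1.42.0, other scalings, no filter, a replicate block, all replicates and leaving out each library were alternatives. The tests were tried on simulated counts.

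Same-numbered libraries deviated together, with every correlation over 0.1, for 4 of 21 group pairs: ECM/MMC- with control (0.248 to 0.501), CM/MMC- with control (0.295 to 0.353), CM/MMC+ with ECM/MMC+ (0.149 to 0.224) and MSC/MMC- with ECM/MMC- (0.105 to 0.581); the labels do not say what a number marks. The members and lists were chosen with earlier results of these data known. Named are the members called in at least 1 of 12 comparisons, the 3 highest by CPM, those that failed the filter, and at most 4 called genes of the pathway lists per comparison, by size of change. Depth limits low genes: a count of 0 allows up to 3 counts, for counting error only.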

Additional observations from a re-analysis of the deposited data

Results flagged for a closer look

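Replicate 1 outside co-culture was left out of the main comparisons and entered only those said to add it. There 5 members were higher, in each of its 5 libraries, than in any of the 21 libraries of replicates 2 to 4. The share of all genes that did so was not counted, so this number is not read as particular to the members. EGR3, an EGR factor close to its detection limit elsewhere, had at least 0.176 CPM there and at most 0.0632 CPM in the others. IER3 had at least 13.7 CPM there and at most 1.06 CPM in the others. SRF had at least 65.2 CPM there, against at most 41.3 CPM, and SPRED2 at least 15.1 CPM, against at most 9.52 CPM. DUSP2 had at least 0.0105 CPM there, which is 1 read, and at most 0.00902 CPM in the others, also 1 read, so that its lowest values cannot be told apart. The same 5 libraries held 4861 to 9584 CPM of stromal markers and 633 to 1274 CPM of TERT; their part in these levels was not tested. Groups of 3 libraries were not tested for single high or low libraries.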

How the results depend on the processing

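Counts of members called depended most on whether replicate 1 was included; leaving out 1 library also moved both co-culture counts by over 1.5 times. Without a filter on low counts they were 8 for ECM/MMC- and 4 for ECM/MMC+ against control, 2 for CM/MMC+ against control, 1 each for ECM/MMC+ against ECM/MMC- and MSC/MMC+ against MSC/MMC-, 1 for the senescence effect on ECM less that in CM, and 2 for that in co-culture less that on ECM. With a replicate block they were 4 for ECM/MMC+ and 3 for CM/MMC+ against control, and the block changed no other count by over 1.5 times. DESeq2 called 6 for ECM/MMC+, 1 for CM/MMC- and 3 for CM/MMC+ against control, and 1 for MSC/MMC+ against MSC/MMC-. In 1 fit of 21 libraries they were 3 for ECM/MMC+ and 2 for CM/MMC+ against control and 1 for MSC/MMC+ against MSC/MMC-. With all replicates they were 0 each for ECM/MMC-, ECM/MMC+, CM/MMC+, MSC/MMC- and MSC/MMC+ against control, 6 for co-culture against CM and 11 for co-culture against ECM. Leaving out 1 library gave 0 to 6 for ECM/MMC-, 0 to 1 for ECM/MMC+, 0 to 2 for CM/MMC+, 11 to 19 for MSC/MMC- and 10 to 20 for MSC/MMC+ against control. With all replicates EGR1 had log2 fold changes of -0.58 for ECM against CM and -0.034 for co-culture against CM, IER3 of -3.61 in MSC/MMC-, -2.16 in MSC/MMC+, -3.36 for co-culture against CM and -3.14 for co-culture against ECM, and ARC of -0.19 for co-culture against ECM, each the opposite sign; replicate 1 of the other groups held 14.0 to 56.4 CPM of EGR1 and 13.7 to 23.8 CPM of IER3. Of 96 called member values, DESeq2 and the replicate block kept 96 past the threshold, another scaling 92 and no filter 91, but all replicates kept 24, left 65 short of the threshold and reversed 7. Leaving out 1 library at a time gave 6 or 12 refits for each of these 96 calls, 906 in all. Of the 906 refitted values 149 fell short of the threshold and 0 reversed.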
